A study of Rattus norvegicus with 12 samples.

Results

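The proteasome subunit genes of adult rat ventricular myocytes are described here after transduction with NR4A2. They were taken as every transcript row whose gene name begins with Psma to Psmg followed by a number, which gave 49 rows, 1 per gene, among 18752 rows in all. Of these 49 genes, 47 were above 0 in every sample and were tested together with the 10950 genes for which that held. The rule uses gene names alone, but it was set with earlier results of these data known. The myocytes came from hearts of adult male Sprague Dawley rats (age in weeks is not given in the sources used here). They had no genetic change named in the labels and were kept in serum-free culture medium. All of them received an adenovirus at a multiplicity of infection of 50, and RNA was taken 48 h later. The 6 Ad-GFP samples received a virus that encodes green fluorescent protein, and the 6 Ad-h-NR4A2 samples received a virus with the human NR4A2 reading frame behind the cytomegalovirus promoter, which is active in any transduced cell. NR4A2 is an orphan nuclear receptor of the NR4A subgroup, and the comparison asks what its overexpression does to the transcripts of the cell.

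The 26S proteasome is the protease that degrades most short-lived and damaged cytosolic and nuclear proteins once they are tagged with ubiquitin. Its 20S core is a barrel of outer alpha rings and inner beta rings, with the proteolytic sites on the inside, and the 19S particle on its ends binds ubiquitin chains, unfolds the substrate with a ring of ATPases, and feeds it into the core. Dedicated chaperones assemble each part, other caps such as PA28 can replace the 19S particle, and immune signals can exchange the catalytic beta subunits for immunoproteasome forms. In cardiac muscle, proteasomal breakdown of sarcomere proteins counterbalances their synthesis, so that the machinery is studied in growth and wasting of the heart.

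Levels are given in FPKM, the fragments on a transcript per kilobase of its length, scaled to the fragments mapped in the sample, so that levels of different genes can be compared per length. The depth implied by the lowest values was 18800000 to 28000000 fragments per sample. Nr4a2 itself, which checks the labels, had 0.626 to 1.40 FPKM in Ad-GFP samples and 445 to 592 FPKM in Ad-h-NR4A2 samples. As the label of the cells implies, cardiomyocyte markers were abundant, and the 7 genes of that list summed to 17185 to 22200.5 FPKM in Ad-GFP samples and to 15424 to 18267 FPKM in Ad-h-NR4A2 samples. Of these markers, 5 fell and 1 rose. Over all genes tested, 21.7% fell and 19.3% rose by the same test, which is given below. The 10 leukocyte markers summed to 129 to 167 FPKM in Ad-GFP and 161 to 210.3 FPKM in Ad-h-NR4A2 samples, of which Cd74 made up the largest portion, and 8 of the 10 had a mean below 1 FPKM. Of the 5 leukocyte markers tested, Csf1r (from 10.1 to 40.2 FPKM) and Cd14 (from 0.222 to 1.19 FPKM) rose. The defining marker Ptprc averaged 0.0258 and 0.0218 FPKM and was not tested. Endothelial, fibroblast, and smooth muscle markers summed to at most 30.4 FPKM in any sample, and Col1a2 was listed at 0 in all samples. Col3a1 (from 3.64 to 1.78 FPKM) and Myh11 (from 3.05 to 1.97 FPKM) fell, and 0 endothelial markers were called. The part of these shifts in the results was not tested. In such bulk samples, fewer cells of a type and less RNA per cell cannot be told apart.

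Most transcripts of the proteasome subunits differed little between the groups, and the genes called moved by small amounts apart from Psmg2. Psmg2, a chaperone of the alpha ring, rose most, by a log2 fold change of 0.61, and the other 20S chaperones Psmg1 and Psmg4 rose by 0.22 and 0.12. Psme2, the beta subunit of PA28, decreased by 0.23. Psmc3ip fell by 0.47, but it shares only its symbol with the family. Among the subunits of the 26S particle itself, Psmc3, Psmd11, Psmb7, Psmb2, and Psmc1 rose, by 0.11 to 0.23. Fold changes are on the log2(FPKM + 0.1) scale, and a gene was called at a Benjamini-Hochberg adjusted p below 0.05 over all genes tested with limma.

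In total, 8 of the 47 members tested were called higher and 2 lower, whereas 19.3% and 21.7% of all genes tested were called higher and lower. The share of members called in either direction was thus 21.3%, compared with 40.9% of all genes. With a further limit of a 1.5-fold ratio of group means, 1 member was called higher (7.94% of all genes) and 0 lower (7.24% of all genes). The 1 member was Psmg2, whose ratio was 1.52 and became 1.49 without the samples numbered 25 or without those numbered 27. The median log2 fold change was 0.04 over the members and -0.02 over all genes. On balance 30 members had a positive and 17 a negative fold change, but the balance depended on scaling and was 24 to 23 after quantile normalization, with 6 members called higher and 3 lower.

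Same-numbered samples of both groups deviated together from their group means, so that a fit with the number as a replicate block was also made. It called 17 members higher and 4 lower, compared with 27.1% and 32.3% of all genes. Members called in either direction thus came to 44.7%, compared with 59.4% of all genes. The block added Psma3, Psmb4, Psmb5, Psmb6, Psmb8, Psmc6, Psmd1, Psmd9, and Psmf1 to the higher members and Psmd2 and Psme1 to the lower members, and 0 calls were lost. The sizes of the differences are the same in both fits.

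The range of possible differences was narrow. The 95% interval of the fold change lay within 1.5-fold in either direction for 44 of 47 members (93.6%) and for 7124 of 10950 genes (65.1%). The members whose interval reached beyond this range were Psmg2 (0.48 to 0.74 on the log2 scale), Psmc3ip (-0.63 to -0.31), and Psmb8 (-0.43 to 1.03). The median size of the difference was 4.30% for members and 14.6% for all genes. Among Ad-GFP samples the median coefficient of variation was 5.47% for members and 10.6% for all genes, and most members were abundant genes, with a median mean level of 152 FPKM compared with 11.2 FPKM for all genes.

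**Figure D1:**
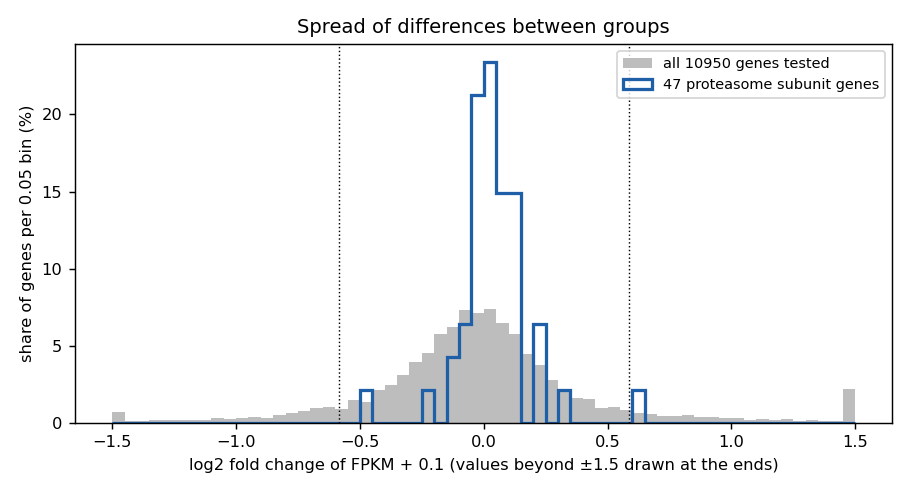
The share of genes (%) in each bin of log2 fold change of FPKM + 0.1, Ad-h-NR4A2 against Ad-GFP, is drawn for all 10950 genes tested (grey) and for the 47 proteasome subunit genes (blue outline), with dotted lines at a 1.5-fold difference. Most members lie close to 0, with Psmg2 (0.61) to the right of the dotted line and Psmc3ip (-0.47) at the left.

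**Figure D2:**
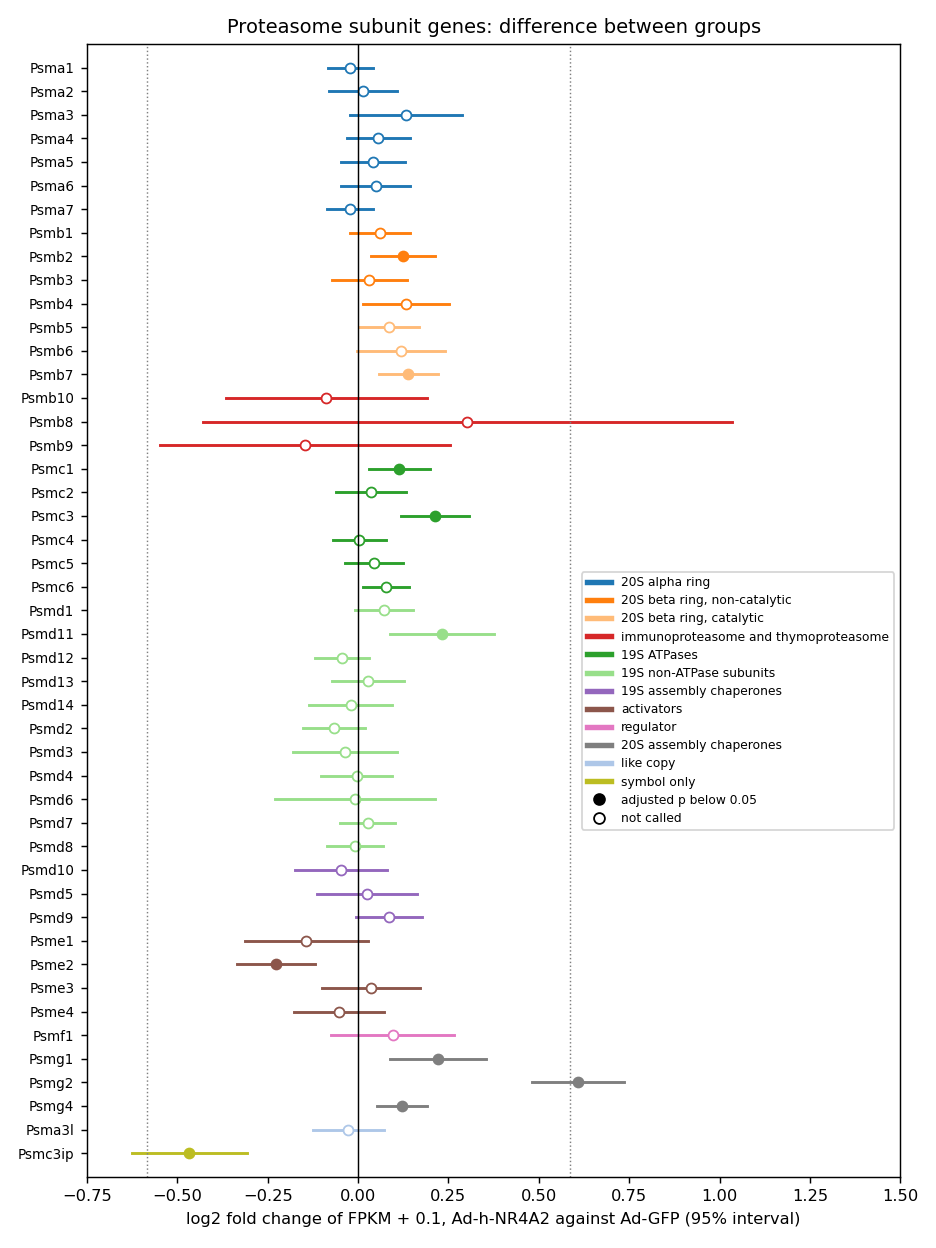
Each row is 1 proteasome subunit gene, with the log2 fold change of FPKM + 0.1 for Ad-h-NR4A2 against Ad-GFP (6 samples each) as a circle and its 95% interval as a line, coloured by subcomplex. Filled circles mark the 10 genes with an adjusted p below 0.05, dotted lines mark a 1.5-fold difference, and the 3 20S assembly chaperones all lie to the right of 0.

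Together the 49 rows made up a median of 1.03% of the FPKM of all transcripts in Ad-GFP samples (0.989% to 1.08%) and 1.04% in Ad-h-NR4A2 samples (1.004% to 1.07%). The 16 rows of the 20S core other than the immunoproteasome subunits summed to 3493 to 3787 FPKM in Ad-GFP and 3590 to 4037 FPKM in Ad-h-NR4A2 samples, and the groups overlapped. The 17 rows of the 19S particle summed to 2373 to 2688 and 2450 to 2671 FPKM, with the Ad-h-NR4A2 range inside the Ad-GFP range. The most abundant member was Psme1, at a mean over all samples of 547 FPKM, and the immunoproteasome subunit Psmb8 was the least abundant of those tested, at 14.7 FPKM. Subunits that occur once per ring were not at 1 common level. Leaving out Psma3 and Psma8, the means of the alpha and constitutive beta subunits lay between 158 and 343 FPKM, and those of the 17 19S subunits between 70.7 and 219 FPKM.

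**Figure D3:**
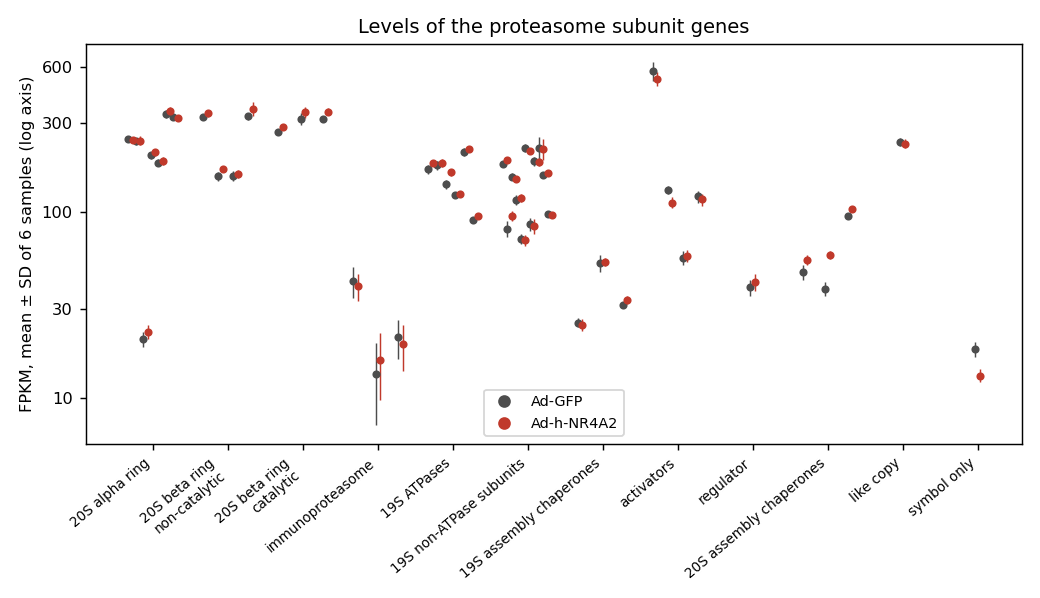
Mean FPKM of each tested member (log axis) is plotted by subcomplex, with bars for the SD of 6 samples, in Ad-GFP (grey) and Ad-h-NR4A2 (red). Paired points of a gene lie close to each other in most subcomplexes. The immunoproteasome subunits sit below the constitutive ring subunits, and the longest bars are those of Psmb8.

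The sequences upstream of 4 members are shown because these genes stand for the patterns described below, namely the member that rose most (Psmg2), the PA28 subunit that fell (Psme2), an immunoproteasome subunit (Psmb10), and the constitutive chymotrypsin-like subunit (Psmb5). They are the 250 bases before the annotated start, written 5′ to 3′ on the strand of the gene, from RefSeq on GRCr8, which is not the build of the expression values. Promoters of 300 bases (250 before and 50 after the start) were found for 43 of the 49 members. Capitals mark an interferon response element (GAAANNGAA) in Psme2 and Psmb10 and the core of the antioxidant response element (TGACNNNGC) in Psmb5, and Psmg2 held none of the motifs searched.
Psmg2, chr18:63478370-63478619, plus strand: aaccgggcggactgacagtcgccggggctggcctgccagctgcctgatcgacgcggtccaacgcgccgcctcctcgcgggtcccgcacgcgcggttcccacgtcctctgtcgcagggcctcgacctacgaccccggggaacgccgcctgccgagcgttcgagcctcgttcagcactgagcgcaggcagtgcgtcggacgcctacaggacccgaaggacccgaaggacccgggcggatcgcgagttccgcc
Psme2, chr15:33052752-33053001, minus strand: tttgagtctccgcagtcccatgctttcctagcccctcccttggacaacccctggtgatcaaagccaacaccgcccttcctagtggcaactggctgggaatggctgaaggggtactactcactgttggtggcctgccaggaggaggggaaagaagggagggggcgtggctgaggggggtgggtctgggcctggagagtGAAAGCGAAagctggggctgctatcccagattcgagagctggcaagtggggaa
Psmb10, chr19:50743293-50743542, minus strand: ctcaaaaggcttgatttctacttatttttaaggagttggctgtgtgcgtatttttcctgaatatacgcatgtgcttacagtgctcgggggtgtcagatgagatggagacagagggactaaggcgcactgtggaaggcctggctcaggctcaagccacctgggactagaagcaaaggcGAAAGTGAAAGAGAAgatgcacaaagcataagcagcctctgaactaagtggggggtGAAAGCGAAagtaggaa
Psmb5, chr15:32047380-32047629, minus strand: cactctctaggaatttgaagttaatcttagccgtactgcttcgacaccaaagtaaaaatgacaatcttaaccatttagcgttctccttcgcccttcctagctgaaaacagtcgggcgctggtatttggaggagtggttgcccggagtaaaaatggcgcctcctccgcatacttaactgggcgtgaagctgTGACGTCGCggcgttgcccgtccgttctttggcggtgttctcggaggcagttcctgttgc

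Motifs were searched by their letters on both strands of the 300 bases. The NGFI-B response element AAAGGTCA, to which NR4A receptors bind as monomers, was in 0 of 43 member promoters and in 1.43% of 33469 promoters. The antioxidant response element core, which NRF1 and NRF2 bind, was in 8 of 43 member promoters (18.6%, compared with 12.1% of all promoters), those of Psma3, Psmb2, Psmb5, Psmb6, Psmd1, Psmd3, Psmd9, and Psme4. Of these 8 genes, Psmb2 was called higher, whereas with the block Psma3, Psmb5, Psmb6, Psmd1, and Psmd9 were called higher as well (19.3% and 27.1% of all genes were called higher in these fits). The interferon response element was in 9 of 43 (20.9%, compared with 9.71% of all promoters), those of Psma4, Psmb2, Psmb3, Psmb8, Psmb10, Psmd7, Psmd11, Psme2, and Psmg4. Psmb10 held 3 of these elements, the first 2 of which overlap in the long stretch of capitals. Of the 9 genes, Psmb2, Psmd11, and Psmg4 were called higher and Psme2 lower, and the block added Psmb8 to the higher. Over all genes, 19.3% were called higher and 21.7% lower (40.9% in either direction), or 27.1% and 32.3% with the block. These counts are no result about genes with the element. A match describes the letters of this window and not a bound site.

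The alpha ring subunits form the gate of the 20S core. Of the 7 tested, limma called 0 (0 also at an unadjusted p below 0.05), the median log2 fold change was 0.04 (0.001 after quantile normalization), and the members lay between -0.02 and 0.13. Psma7 (chromosome 3, 181692298 to 181698641, Rn5) had the lowest fold change of the ring. Its lowest, median, and highest FPKM were 321, 324, and 329 in Ad-GFP samples and 311, 317, and 332 in Ad-h-NR4A2 samples. The Ad-GFP values lay inside the Ad-h-NR4A2 range (log2 fold change -0.02, SE 0.03, adjusted p = 0.572). Psma1, Psma2, Psma4, Psma5, and Psma6 had mean levels of 183 to 336 FPKM in Ad-GFP samples and fold changes of -0.02 to 0.06.

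Psma3 had the highest fold change of the ring but is uncertain. In the files, Psma3 and its like copy Psma3l have the same coordinates (chromosome 6, 102868509 to 102898751, Rn5), and RefSeq on GRCr8 gives Psma3l as another name of Psma3, so that fragments of 1 gene may be split between the rows. Psma3 had 18.3, 20.7, and 22.9 FPKM (lowest, median, highest) in Ad-GFP and 19.9, 22.9, and 24.5 FPKM in Ad-h-NR4A2 samples, with ranges that overlap but the higher value in Ad-h-NR4A2 in all 6 pairs (log2 fold change 0.13, SE 0.07, adjusted p = 0.157, or 0.0454 with the replicate block). Psma3l had 223, 237, and 252 FPKM in Ad-GFP and 214, 234, and 249.8 FPKM in Ad-h-NR4A2 samples (log2 fold change -0.03, SE 0.05, adjusted p = 0.671). Both rows added together had a median of 257 and 256 FPKM, which is in the range of the other alpha subunits. Psma8, the alpha subunit of testis proteasomes, had 0 fragments in all 12 samples. The limit that 0 fragments allow (3 fragments per sample) was 0.0639 to 0.0954 FPKM.

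Of the 7 constitutive beta ring subunits, Psmb2 and Psmb7 rose, and the fold changes lay between 0.03 and 0.14 on the log2 scale. Of the 4 non-catalytic subunits, which shape the ring, Psmb2 was called, and the median log2 fold change was 0.09. Psmb2 (chromosome 5, 148472394 to 148504751, Rn5) had 145 to 165 FPKM in Ad-GFP and 164 to 179 FPKM in Ad-h-NR4A2 samples, so that the ranges met at their ends (log2 fold change 0.12, SE 0.04, adjusted p = 0.0256). This call ended without the samples numbered 25, 27, 28, or 29 (adjusted p 0.0548 to 0.0773), on the TPM scale (0.0634), and without the trend in the variance (0.0516). Psmb4 (chromosome 2, 215536873 to 215539647, Rn5) had the highest fold change of the non-catalytic subunits. Its lowest, median, and highest FPKM were 310.3, 326, and 347 in Ad-GFP and 317, 364, and 398 in Ad-h-NR4A2 samples, higher in all 6 pairs but with overlap (log2 fold change 0.13, SE 0.05, adjusted p = 0.0711, or 0.0037 with the replicate block and 0.0350 without the samples numbered 24). Psmb3 had the lowest, with 139, 158, and 167 FPKM in Ad-GFP and 148, 159.8, and 171 FPKM in Ad-h-NR4A2 samples, which overlapped almost fully (log2 fold change 0.03, adjusted p = 0.640). Psmb1 lay between, at 0.06.

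The catalytic subunits carry the proteolytic sites, chymotrypsin-like in Psmb5, caspase-like in Psmb6, and trypsin-like in Psmb7. All 3 had a higher value in the Ad-h-NR4A2 sample of every pair, and Psmb7 was called. Psmb7 (chromosome 3, 28115649 to 28176245, Rn5) had 303, 314, and 327 FPKM (lowest, median, highest) in Ad-GFP and 323, 348, and 367 FPKM in Ad-h-NR4A2 samples, with the lowest Ad-h-NR4A2 value below the highest Ad-GFP value (log2 fold change 0.14, SE 0.04, adjusted p = 0.0101). Psmb5 (chromosome 15, 37143058 to 37147105, Rn5), whose upstream sequence is shown above, had 256, 269, and 283 FPKM in Ad-GFP and 269, 285, and 301 FPKM in Ad-h-NR4A2 samples (log2 fold change 0.09, SE 0.04, adjusted p = 0.0922, or 0.0320 with the replicate block). Psmb6 (chromosome 10, 56888972 to 56891279, Rn5) had 284, 319, and 342 FPKM in Ad-GFP and 309.9, 343, and 376 FPKM in Ad-h-NR4A2 samples (log2 fold change 0.12, SE 0.06, adjusted p = 0.108, or 0.0049 with the replicate block). The groups overlapped in both genes.

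The immunoproteasome subunits Psmb8, Psmb9, and Psmb10 take the places of Psmb5, Psmb6, and Psmb7 when interferon induces them, and thereby favor peptides that fit class I antigen presentation. In the limma fit 0 of 3 were called, with 0 at an unadjusted p below 0.05. They were also the members that varied most among Ad-GFP samples, with coefficients of variation of 47.2% for Psmb8, 23.4% for Psmb9, and 19.1% for Psmb10, the highest of all members tested.

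Psmb8 (chromosome 20, 6070357 to 6073320, Rn5) varied more by sample number than by virus. In Ad-GFP samples 24 to 29 it had 9.33, 5.78, 8.61, 17.7, 17.3, and 21.7 FPKM, and in the same-numbered Ad-h-NR4A2 samples 11.9, 8.10, 12.2, 17.3, 22.6, and 23.9 FPKM. Samples 27, 28, and 29 were high and samples 24, 25, and 26 low in both groups, without overlap between these numbers, and the groups themselves overlapped widely. Its log2 fold change of 0.30 did not pass the test (SE 0.34, adjusted p = 0.512), and within pairs, where 5 of 6 were higher, the standard error shrank to 0.07 (adjusted p = 0.0051 with the replicate block). The leukocyte markers, most of whose sum is Cd74, summed to 129 to 152 FPKM in Ad-GFP samples 27 to 29 and to 129 to 167 FPKM in samples 24 to 26, and in Ad-h-NR4A2 samples to 161 to 189 and 173 to 210.3 FPKM. The part of other cell types in the split by number was not tested.

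Psmb9, which lies next to Psmb8 (chromosome 20, 6052972 to 6058393, Rn5), had 16.3, 20.0, and 29.1 FPKM (lowest, median, highest) in Ad-GFP and 12.5, 19.2, and 27.6 FPKM in Ad-h-NR4A2 samples (log2 fold change -0.15, SE 0.19, adjusted p = 0.569). Psmb10 (chromosome 19, 48776575 to 48779058, Rn5) had 33.7, 40.3, and 53.4 FPKM in Ad-GFP and 32.7, 38.3, and 50.7 FPKM in Ad-h-NR4A2 samples (log2 fold change -0.09, SE 0.13, adjusted p = 0.623). In both genes the groups covered nearly the same range. Both showed the same split by number as Psmb8, with Psmb9 at 21.97 to 29.1 FPKM in Ad-GFP samples 27 to 29 and 16.3 to 18.1 FPKM in samples 24 to 26, and at 20.0 to 27.6 and 12.5 to 18.3 FPKM in the same-numbered Ad-h-NR4A2 samples. For Psmb10 these ranges were 42.7 to 53.4 and 33.7 to 38.0 FPKM in Ad-GFP and 40.4 to 50.7 and 32.7 to 36.2 FPKM in Ad-h-NR4A2 samples. B2m, the light chain of class I molecules, separated the same numbers, at 1035 to 1153 and 810.4 to 888 FPKM in Ad-GFP and 1085 to 1254 and 862 to 1046 FPKM in Ad-h-NR4A2 samples. The split was not particular to these genes. Psmd2, Psmd5, Psmd14, and Psme4 also had samples 27 to 29 above samples 24 to 26 in both groups. For Psmd14 the ranges were 73.1 to 76.5 and 64.7 to 71.6 FPKM in Ad-GFP samples. In Ad-h-NR4A2 samples they were 69.7 to 75.8 and 64.5 to 68.8 FPKM. Psmb11, the thymus-specific counterpart that lies close to Psmb5 on chromosome 15, was not tested. Its 6 Ad-GFP samples held 2 fragments in all and its Ad-h-NR4A2 samples 17, between 0 and 6 per sample, and 3 fragments in a sample correspond to 0.0451 to 0.0674 FPKM. No fold is given at these levels.

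Each immunoproteasome subunit was also set against the constitutive subunit it replaces, within the same sample. As a share of both together, Psmb8 made up a median of 4.65% in Ad-GFP and 4.98% in Ad-h-NR4A2 samples, Psmb9 5.90% and 5.51%, and Psmb10 11.5% and 10.1%. The log2 difference of Psmb10 and Psmb7 differed between the groups by -0.23 (Ad-h-NR4A2 minus Ad-GFP) and had this sign in all 6 pairs (two-sided exact permutation test over 924 splits, p = 0.0952, adjusted p = 0.286 over 3 comparisons). For Psmb9 and Psmb6 it was -0.27 (exact permutation p = 0.193, adjusted p = 0.289, lower in 5 of 6 pairs), and for Psmb8 and Psmb5 it was 0.22 (exact permutation p = 0.554, adjusted p = 0.554, higher in 5 of 6 pairs). The smallest p that these splits allow is 0.00216. Within pairs, by sign flips, the exact permutation p was 0.0938 for Psmb8 and Psmb5, 0.0625 for Psmb9 and Psmb6, and 0.0312 for Psmb10 and Psmb7, the last being the smallest that 6 pairs allow. Adjusted over 3 comparisons these became 0.0938 each, a test in which 1 comparison alone cannot pass at 0.05.

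**Figure D4:**
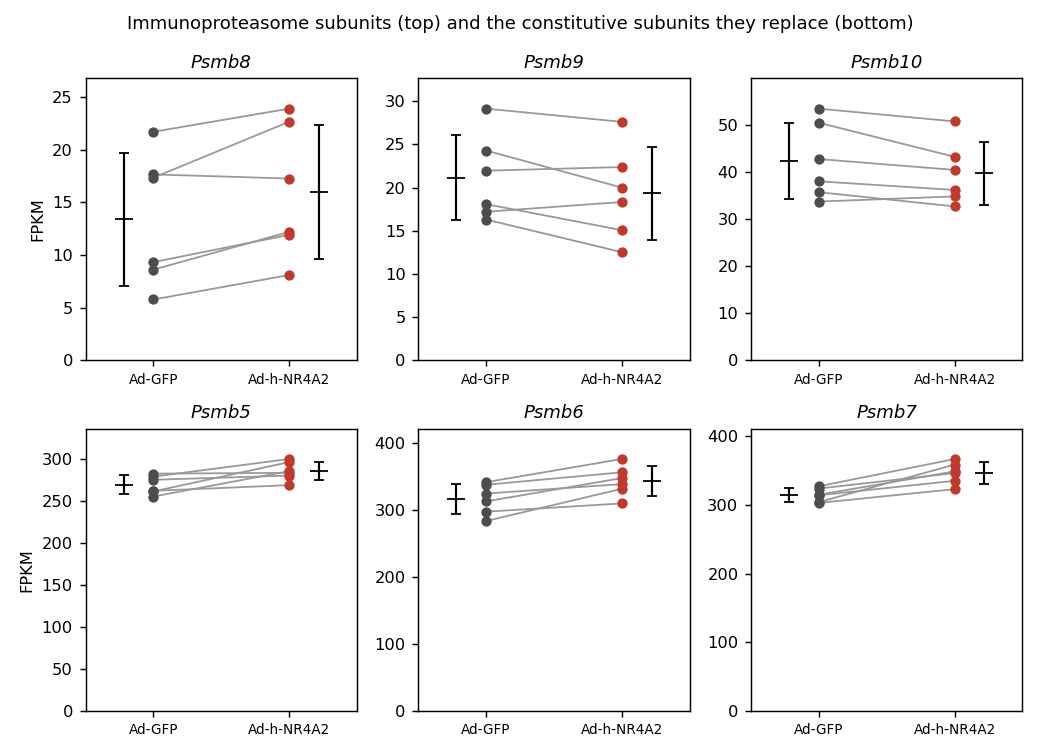
FPKM of the immunoproteasome subunits Psmb8, Psmb9, and Psmb10 (top) and of the constitutive subunits they replace, Psmb5, Psmb6, and Psmb7 (bottom), is drawn for each sample. Grey lines join same-numbered samples, black bars give the mean and SD of 6 samples, and each axis starts at 0. All lines of the constitutive subunits go up. In both groups the Psmb8 points of samples 27 to 29 lie above those of samples 24 to 26.

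The 6 ATPases of the 19S particle unfold the substrate, and 2 of them, Psmc3 and Psmc1, were called higher (median log2 fold change 0.06, or 0.01 after quantile normalization). Psmc3 (chromosome 3, 86585691 to 86591069, Rn5) had 126, 143, and 147 FPKM (lowest, median, highest) in Ad-GFP and 151, 164, and 171 FPKM in Ad-h-NR4A2 samples, so that every Ad-h-NR4A2 sample was above every Ad-GFP sample (log2 fold change 0.21, SE 0.04, adjusted p = 0.0017). The lowest value was that of Ad-GFP sample 25, and without the samples numbered 25 or any other number the call held (adjusted p at most 0.0090). Psmc1 had 161 to 184 FPKM in Ad-GFP and 176 to 190.3 FPKM in Ad-h-NR4A2 samples, which overlapped (log2 fold change 0.11, SE 0.04, adjusted p = 0.0321). This call ended without the samples numbered 25, 26, 27, or 29 (adjusted p 0.0664 to 0.111), on the TPM scale (0.109), without the trend (0.0639), and after quantile normalization (0.126). Psmc6 had 87.7 to 92.7 FPKM in Ad-GFP and 93.1 to 98.1 FPKM in Ad-h-NR4A2 samples, with no overlap, but a log2 fold change of 0.08 that did not pass the test (adjusted p = 0.0557, or 0.0167 with the replicate block, 0.0483 after median centring, 0.0479 with a pseudocount of 1, and 0.0080 without the filter on low values). Psmc4 had the lowest fold change, with 118, 124, and 130.1 FPKM in Ad-GFP and 119.7, 124, and 129 FPKM in Ad-h-NR4A2 samples, ranges that nearly coincide (log2 fold change 0.003, 95% interval -0.07 to 0.08). Psmc2 and Psmc5 lay at 0.04.

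Of the 11 non-ATPase subunits of the 19S particle, which hold the ubiquitin receptors, the deubiquitinase Psmd14, and the scaffold of the lid, Psmd11 was called higher, and the median log2 fold change was -0.008 (0.0007 after median centring and -0.05 after quantile normalization). Psmd11 (chromosome 10, 67189251 to 67811744, Rn5), a scaffold subunit of the lid, had 71.6, 79.95, and 95.4 FPKM (lowest, median, highest) in Ad-GFP and 89.5, 92.6, and 106 FPKM in Ad-h-NR4A2 samples, higher in all 6 pairs but with overlap (log2 fold change 0.23, SE 0.07, adjusted p = 0.0132). The locus given for it in the files is far longer than those of the other members. Psmd2 (chromosome 11, 87006146 to 87016773, Rn5), a scaffold subunit of the base, had the lowest fold change of these subunits, with 210.4, 219, and 244 FPKM in Ad-GFP and 204, 210.5, and 222 FPKM in Ad-h-NR4A2 samples (log2 fold change -0.07, SE 0.04, adjusted p = 0.207, or 0.0303 with the replicate block). It was lower in all 6 pairs, and its groups overlapped. Psmd1, which like Psmd2 is a base scaffold, moved the other way within pairs (log2 fold change 0.07, adjusted p = 0.145, or 0.0272 with the replicate block).

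The other 19S subunits Psmd3, Psmd4, Psmd6, Psmd7, Psmd8, Psmd12, Psmd13, and Psmd14 had log2 fold changes of -0.04 to 0.03, with adjusted p of at least 0.343, and mean levels in Ad-GFP samples of 71.2 to 219.6 FPKM. Psmd14, which cuts ubiquitin chains off the substrate, had 71.2 ± 4.54 FPKM (SD, n = 6) in Ad-GFP and 70.2 ± 4.51 FPKM in Ad-h-NR4A2 samples. Psmd6 varied most among Ad-GFP samples of these (coefficient of variation 14.6%), from 175 FPKM in sample 27 to 262 FPKM in sample 24, and its Ad-h-NR4A2 values followed the same numbers, from 181 to 264 FPKM.

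The 19S assembly chaperones Psmd5, Psmd9, and Psmd10 guide the ATPases into their ring. In the limma fit 0 were called, with 0 at an unadjusted p below 0.05. Psmd9 had 29.96, 31.4, and 32.6 FPKM (lowest, median, highest) in Ad-GFP and 31.7, 33.1, and 36.3 FPKM in Ad-h-NR4A2 samples, higher in all 6 pairs with overlap between groups (log2 fold change 0.09, SE 0.04, adjusted p = 0.124, or 0.0333 with the replicate block). Psmd10, also called gankyrin, had 23.3, 25.6, and 27.3 FPKM in Ad-GFP and 21.1, 24.9, and 26.4 FPKM in Ad-h-NR4A2 samples (log2 fold change -0.05, SE 0.06, adjusted p = 0.565). The files place Psmd10 on chromosome 3, whereas RefSeq on GRCr8 places the gene on chromosome X, so that its row is uncertain. Psmd5 lay at 0.02.

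The activators replace the 19S particle as caps. Psme1 and Psme2 encode the alpha and beta subunits of PA28, an interferon-inducible cap linked to antigen processing, and they lie next to each other on chromosome 15 of Rn5 (38146266 to 38153351 and 38155750 to 38160046). Psme2 had 124, 129, and 142 FPKM (lowest, median, highest) in Ad-GFP and 106, 108, and 125 FPKM in Ad-h-NR4A2 samples. It was lower in all 6 pairs, and only Ad-h-NR4A2 sample 29 reached the Ad-GFP range (log2 fold change -0.23, SE 0.05, adjusted p = 0.0027). Its call held without any 1 sample number (adjusted p at most 0.0165).

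Psme1 had 487, 580.2, and 649 FPKM in Ad-GFP and 445, 521, and 571 FPKM in Ad-h-NR4A2 samples. It too was lower in all 6 pairs, but the samples differed widely by number and the groups overlapped (log2 fold change -0.14, SE 0.08, adjusted p = 0.165). The block lowered the adjusted p to 0.0037, and after quantile normalization it was 0.0373 with a log2 fold change of -0.20. Psme3, the nuclear activator PA28 gamma, had 50.5, 55.7, and 62.5 FPKM in Ad-GFP and 53.1, 58.5, and 63.5 FPKM in Ad-h-NR4A2 samples (log2 fold change 0.04, SE 0.06, adjusted p = 0.688). Psme4, the activator PA200, had 108, 120.2, and 134 FPKM in Ad-GFP and 107, 114, and 129 FPKM in Ad-h-NR4A2 samples (log2 fold change -0.05, SE 0.06, adjusted p = 0.501). Ranges of both genes overlapped nearly in full. Psmf1, the inhibitor PI31, had 35.0, 38.2, and 44.2 FPKM in Ad-GFP and 36.2, 42.0, and 48.2 FPKM in Ad-h-NR4A2 samples, with overlap (log2 fold change 0.10, SE 0.08, adjusted p = 0.359, or 0.0426 with the replicate block).

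The chaperones of the 20S core were the only group of more than 1 gene whose tested members were all called in 1 direction without the block. In that fit 19.3% of all genes were called higher. The group is set by the Psmg symbol, and the 20S maturation factor Pomp, given below as uncertain, was not called. With the block the 3 catalytic beta subunits were all called higher too, and after quantile normalization the call of Psmg4 ended. Psmg1 and Psmg2 act as a pair that seeds the alpha ring, and Psmg4 belongs to a second pair with Psmg3. No row carries the name Psmg3. Psmg2 (chromosome 18, 62579990 to 62594563, Rn5), whose upstream sequence is shown above, had 32.9, 38.7, and 42.1 FPKM (lowest, median, highest) in Ad-GFP and 56.1, 57.4, and 64.2 FPKM in Ad-h-NR4A2 samples. Every Ad-h-NR4A2 sample lay well above every Ad-GFP sample (log2 fold change 0.61, SE 0.06, adjusted p = 2.87e-06). Its adjusted p stayed between 1.91e-06 and 5.27e-05 over all 16 alternatives.

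Psmg1 (chromosome 11, 39858073 to 39866253, Rn5) had 41.5, 47.9, and 53.5 FPKM in Ad-GFP and 50.3, 55.9, and 60.3 FPKM in Ad-h-NR4A2 samples, higher in all 6 pairs although the ranges overlapped (log2 fold change 0.22, SE 0.06, adjusted p = 0.0111). Psmg4 (chromosome 17, 33299002 to 33306344, Rn5) had 93.8, 94.8, and 97.9 FPKM in Ad-GFP and 98.8, 103.8, and 109 FPKM in Ad-h-NR4A2 samples, without overlap (log2 fold change 0.12, SE 0.03, adjusted p = 0.0082). Its call ended after quantile normalization (log2 fold change 0.07, adjusted p = 0.0981). Psmg2 was the less abundant of the pair in Ad-GFP samples (38.5 ± 3.30 FPKM, compared with 47.3 ± 4.11 FPKM for Psmg1, SD, n = 6) but not in Ad-h-NR4A2 samples (58.6 ± 3.07 and 55.1 ± 3.55 FPKM). Whether the change of Psmg2 differs from that of Psmg1 was not tested.

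**Figure D5:**
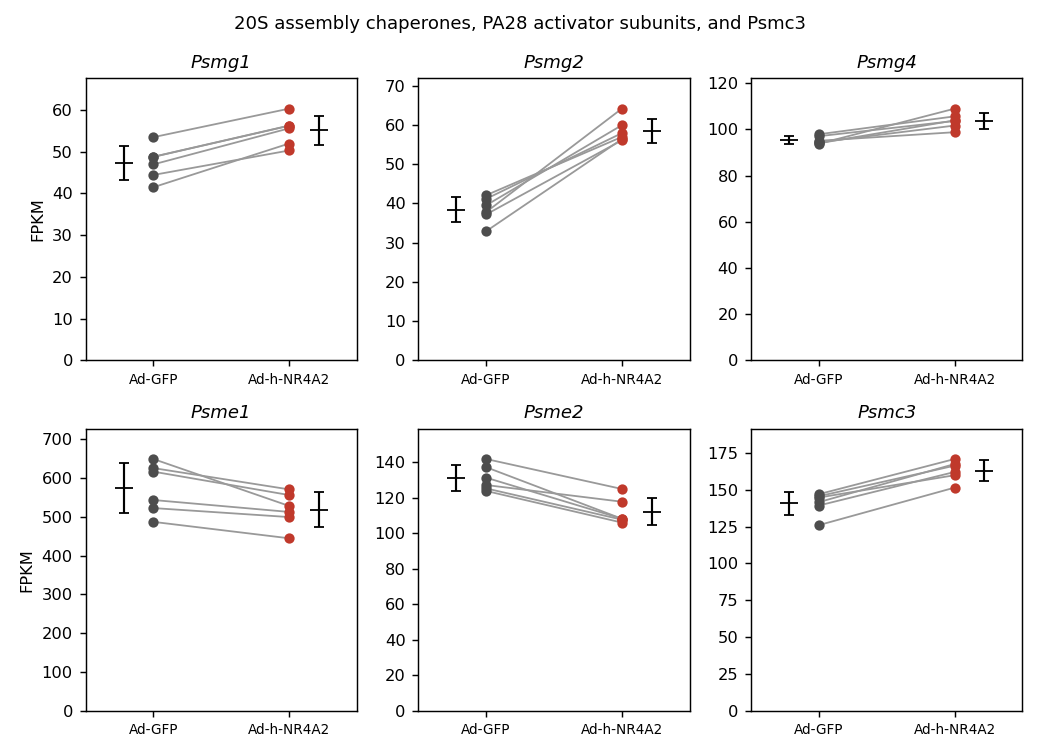
FPKM of the 20S chaperones Psmg1, Psmg2, and Psmg4, the PA28 subunits Psme1 and Psme2, and the ATPase Psmc3 is drawn for each sample, with grey lines between same-numbered samples, black bars for the mean and SD of 6 samples, and axes from 0. All lines of the chaperones and Psmc3 go up and all lines of Psme1 and Psme2 go down, and the groups do not overlap in Psmg2, Psmg4, and Psmc3.

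In all, the groups did not overlap for 4 members that were higher (Psmc3, Psmc6, Psmg2, and Psmg4) and 1 that was lower (Psmc3ip), compared with 10.9% and 10.6% of all genes (21.5% in either direction). Psmc3ip encodes a protein of meiotic recombination that binds a proteasome ATPase and is no proteasome subunit. It had 16.1, 17.9, and 21.4 FPKM in Ad-GFP and 11.4, 13.1, and 14.4 FPKM in Ad-h-NR4A2 samples (log2 fold change -0.47, SE 0.07, adjusted p = 2.06e-04), the largest decrease of any row chosen. Without it, Psme2 was the only member called lower.

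Genes that work with the proteasome but carry another symbol were compared in the same fit. The 5 lists held 35 symbols, among them older and newer names of the same gene (Shfm1 and Sem1, Ufd1l and Ufd1). Of these symbols, 29 had a row and were tested. Nfe2l1, which encodes NRF1, had no row. Called were 6 higher and 6 lower (19.3% and 21.7% of all genes), and the median log2 fold change was -0.08. These counts are near the share over all genes and are no result about the lists. Higher were Txnl1 (0.31), a thioredoxin-like protein of the 19S particle, the proteasome-bound deubiquitinase Usp14 (0.23), the shuttle factor Rad23b (0.28), Ngly1 (0.23), which activates the transcription factor NRF1, the ubiquitin-activating enzyme Uba1 (0.25), and the ubiquitin fusion gene Rps27a (0.15). Lower were Zfand2a (-0.66), an arsenite-inducible partner of the proteasome, the ligase Ube3a (-0.18), Akirin2 (-0.27), which takes part in nuclear import of proteasomes, the Vcp cofactor Faf1 (-0.12), the polyubiquitin gene Ubb (-0.32), and the second activating enzyme Uba6 (-0.31). With the replicate block the counts were 7 and 14 (27.1% and 32.3% of all genes).

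Zfand2a had 35.5 ± 10.6 FPKM (SD, n = 6) in Ad-GFP and 22.2 ± 6.07 FPKM in Ad-h-NR4A2 samples, lower in all 6 pairs with overlap of the ranges (SE 0.20, adjusted p = 0.0169). Its call ended without the samples numbered 25 (adjusted p = 0.0559) or 26 (0.0620) and without the filter on low values (0.0507). The ubiquitin receptor Adrm1 had 106 ± 12.7 and 100.4 ± 11.4 FPKM (log2 fold change -0.08, adjusted p = 0.504, or 0.0294 with the replicate block), and the unfoldase Vcp had 368 ± 23.1 and 357 ± 21.9 FPKM (log2 fold change -0.04, adjusted p = 0.563). Nfe2l2, which encodes NRF2, had 102 ± 10.1 and 91.1 ± 7.44 FPKM (log2 fold change -0.15, adjusted p = 0.0941). It was lower in all 6 pairs and passed the test with the replicate block (0.0041), after quantile normalization (0.0193), and without the samples numbered 24 (0.0425). The 20S maturation factor Pomp had 0.294 ± 0.118 and 0.284 ± 0.159 FPKM, which is uncertain because the files list it at a pair of near-identical loci. Sem1, which the files give under its older name Shfm1, lay at 0.02.

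The neighbors of the immunoproteasome genes in antigen processing were a list of 9 genes, of which 6 were tested, with 0 called higher by limma (0 at an unadjusted p below 0.05) and 1 lower. The 1 lower was Irf1, an interferon-induced activator of Psmb9 and other genes of the pathway, which had 15.7 to 18.7 FPKM in Ad-GFP and 9.77 to 12.4 FPKM in Ad-h-NR4A2 samples, without overlap (log2 fold change -0.66, SE 0.08, adjusted p = 1.16e-05). The peptide transporter Tap1 had 5.91 ± 0.831 and 6.25 ± 0.402 FPKM (SD, n = 6), which overlapped (log2 fold change 0.09, adjusted p = 0.475), and Tap2, not tested, was at or below 0.0802 FPKM in all samples. Ciita, the activator of class II genes, was not tested either, with at most 0.0144 FPKM in Ad-GFP and 0.112 to 0.408 FPKM in Ad-h-NR4A2 samples. Thus Irf1, Psme2, and, within pairs, Psme1 were lower in Ad-h-NR4A2 samples, whereas Psmb8 was higher within pairs and Psmb9 and Psmb10 did not pass the test in either fit (with the replicate block, adjusted p = 0.0736 and 0.0555).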

How the data were processed

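RNA of 12 samples was sequenced, 6 in each group, and the groups come from the sample labels. The authors made stranded mRNA libraries, read them in pairs, used STAR for alignment to Rn5, and obtained FPKM per RefSeq transcript from Cufflinks. The deposited FPKM were used as given. Their deposited confidence limits mostly equal the FPKM and were not used. The transcript lengths deposited by the authors served, with the low FPKM, to recover depth, which was 18800000 to 28000000 fragments per sample (at least 99.2% of low values whole within 0.05, for transcripts of 800 nucleotides or more). Fragment numbers and their limits cover counting error only.

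Log2(FPKM + 0.1) of 10950 genes above 0 in all samples, each represented by its most abundant transcript, was fitted with limma 3.58.1 (lmFit, eBayes with trend, two-sided, Benjamini-Hochberg over all genes) in R 4.3.3, without a block because the study's tests of 2 groups are unpaired. A gene was called at an adjusted p below 0.05. The fit was tested on simulated data. The labels number samples of both groups 24 to 29 without saying what the number is, and deviations of same-numbered samples from their group means correlated at 0.347 to 0.623 in the 6 pairs, so that the numbers pair the samples. The labels name no separate cultures, so that p-values measure the spread between these samples, while the study describes myocytes from different rats. Subunit pairs were compared by an exact permutation test. The rest was done in Python 3.11.15 (SciPy 1.17.1 for statistics, pandas 2.3.3 with NumPy 2.4.6 for tables, and Matplotlib 3.10.9 for plots). Start positions in the files count from 0 and were raised by 1.

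Members, gene lists, and motifs were chosen with earlier results of these data known. Values in every sample are written out for Psmb8. Lowest, median, and highest values are given for the rest of Psmb5 to Psmb10 and for Psme1 to Psme4. They are also given for members called with a ratio of at least 1.5 and the highest and lowest fold change of each subcomplex. Other members named with ranges or means of their own (Psmb2, Psmc1, Psmc6, Psmd14, Psmd6, and Psmg1) and the pathway genes called were chosen after their values were seen. Alternatives were other pseudocounts, filters, scalings, transcripts summed, no trend, the block, and each number left out in both groups. RefSeq promoters on GRCr8 were matched by symbol, and 19 members have like-named copies or pseudogenes in that annotation, to which reads may be split. No protein sequences were used here.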

Additional observations from a re-analysis of the deposited data

Results flagged for a closer look

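In 3 groups of 6 samples, 1 sample lay far from the other 5 by Dixon's criterion, of 64 groups examined among the genes named, and chance alone gives about 1 in 20 groups. Psmc3 had 126 FPKM in Ad-GFP sample 25, where the other 5 had 139 to 147 FPKM. Psmd2 had 244 FPKM in Ad-GFP sample 28, where the other 5 had 210.4 to 221 FPKM. Nfe2l2 had 106 FPKM in Ad-h-NR4A2 sample 24, where the other 5 had 84.6 to 90.8 FPKM.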

How the results depend on the processing

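The replicate block moved the counts most, from 8 to 17 members called higher and from 2 to 4 called lower, and it changed no other call among members than those named above. With each sample number left out in turn, 6 to 9 members were called higher and 2 to 2 lower, and the count with a ratio of at least 1.5 was 0 to 1, being 0 without the samples numbered 25 or 27. Under pseudocounts of 1 and 0.01, other filters, the TPM scale, quantile normalization, median centring, transcripts summed, and no trend, 6 to 9 members were called higher and 2 to 3 lower, and the subcomplex medians moved by less than the spread between replicates, although quantile normalization brought those of the alpha ring and the 19S ATPases close to 0. The scalings shifted the median log2 fold change of all genes by under 0.1, to between -0.04 and -0.02. Of the 10 calls, Psmg1, Psmg2, Psmd11, Psmc3, Psmb7, Psme2, and Psmc3ip held under all 16 alternatives, and those of Psmb2, Psmc1, and Psmg4 did not, while Psmc6 gained a call under 4 of them. The adjusted p of Psmd11 and Psmb7 reached 0.0496 with 1 number left out. Psma8 and Psmb11 were not above 0 in every sample and were not tested. Why calls changed was not tested.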
